A study of Homo sapiens with 6 samples.

Results

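The actin isoform genes of HEK293 cells were followed from solvent control to an inhibitor of phosphatidylinositol 4-kinase alpha. Members were the genes whose symbol was ACTB, ACTG1, ACTA1, ACTA2, ACTG2, ACTC1 or ACTBL2, and all 7 were found among the 63140 genes of the count table. The set was proposed because ACTBL2 and ACTA2 had already been seen to move with GSK-A1 in these libraries, so every GSK-A1 to DMSO comparison of a member is a description and carries no test. HEK293 is an established line from human embryonic kidney that carries adenoviral DNA. The DMSO group held 3 libraries of cells given the solvent dimethyl sulfoxide, and the GSK-A1 group held 3 libraries of cells given 100 nM of the inhibitor, both for 24 h. The cells were grown in medium with fetal bovine serum and treated when confluent, per the labels' protocols. The labels call the libraries biological replicates and say no more of separate cultures, so errors and p-values measure the spread between these libraries.

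Actin is the protein of microfilaments, which cells build from monomers and take apart again. ACTB and ACTG1 encode the cytoplasmic beta and gamma actins that nearly every cell makes. ACTA1 and ACTC1 encode the actins of skeletal and cardiac muscle, ACTA2 the smooth muscle alpha actin also found in myofibroblasts, and ACTG2 the gamma actin of enteric smooth muscle. ACTBL2 is an intronless gene for a beta-like actin. Several actin genes are classic targets of serum response factor (SRF), which binds a promoter motif called the CArG box, and of its actin-sensing cofactors MRTFA and MRTFB.

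The libraries held 33040178 to 47777233 counts. GSK-A1 replicate 2 stood apart: its chi-square statistic per gene was 10.98 and 15.52 against the other GSK-A1 libraries, which differed from each other by 2.88, while DMSO pairs gave 1.84 to 3.14. Of the genes known from HEK293 cells that are reported here, KRT8, KRT18, VIM, NEFL, PAX2, LHX1 and CDH2 had a mean above 1 CPM (counts scaled to the library's size), and NEFM was at 0.142 CPM with DMSO and 0.282 CPM with GSK-A1. None of 7 skeletal and cardiac muscle markers reached 1 CPM, and MYOD1, MYOG, MYH6, MYH7, TNNT2 and CKM averaged less than 0.0905 CPM, which 3 counts were worth in the smallest library. Leukocyte markers PTPRC, CD3E, CD68 and LYZ were below that level too.

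How far reads can tell the members apart was read from the transcripts of GENCODE release 29. The coding sequences, of 1125 to 1131 bases, were 91.3% identical between ACTB and ACTG1 and 78.0% identical between ACTA1 and ACTBL2, the most distant pair. The first 60 coding bases are shown because they hold the isoforms' differing N-terminal codons, with capitals where a base differs from ACTB or has no partner in it.
ACTB: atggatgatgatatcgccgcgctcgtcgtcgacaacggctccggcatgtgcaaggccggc
ACTG1: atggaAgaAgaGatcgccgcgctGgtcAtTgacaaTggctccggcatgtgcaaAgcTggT
ACTA1: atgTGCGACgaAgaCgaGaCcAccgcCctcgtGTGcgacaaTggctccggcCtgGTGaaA
ACTA2: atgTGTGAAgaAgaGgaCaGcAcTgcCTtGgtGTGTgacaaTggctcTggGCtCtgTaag
ACTG2: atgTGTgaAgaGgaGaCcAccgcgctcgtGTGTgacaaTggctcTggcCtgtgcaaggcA
ACTC1: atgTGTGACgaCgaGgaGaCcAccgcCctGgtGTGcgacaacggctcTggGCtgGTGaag
ACTBL2: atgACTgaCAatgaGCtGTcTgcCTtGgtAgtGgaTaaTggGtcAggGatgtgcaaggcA
ACTG1 differed from ACTB at 10 of these 60 bases, while ACTA2 differed at 25 and ACTBL2 at 21. Over whole transcripts, no 50-base stretch of ACTA2 or ACTBL2 occurred in a transcript of any other gene. ACTB shared 10.3% of its 50-base stretches with other genes, mainly its pseudogene ACTBP2 and the POTE genes that carry an actin part, and only 1.12% with another member. ACTG1 shared 4.03% with other genes and 0.510% with another member, ACTA1 shared 1.87%, and ACTG2 and ACTC1 shared under 0.3%. The counts of ACTB and ACTG1 could therefore include or lose a small part to copies, depending on how multiply placed reads were counted, which is not given in the sources used here. The copies that were summed had few counts. The 30 actin pseudogenes with an ACTBP or ACTG1P name summed to between 38 and 69 counts in a library, and POTEE, POTEF, POTEI and POTEJ to between 1 and 7. Other genes that share stretches, such as AL359924.1 with ACTG1 and AP000529.1 with ACTB, were not summed. These counts do not show how many reads ACTB and ACTG1 lost, since multiply placed reads may have been dropped.

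The cytoplasmic actins made up nearly all actin mRNA. ACTB (ENSG00000075624, chr7:5527147-5563784, minus strand, GRCh38) had a level of 2153, 2170.3 and 2141 CPM with DMSO, in the order of the replicate numbers, and of 1960.0, 1962 and 1929 CPM with GSK-A1. All GSK-A1 libraries lay below all DMSO libraries, with means of 2155 ± 14.8 and 1950.5 ± 18.3 CPM (SD, n = 3 libraries), a log2 fold change of -0.14 ± 0.03 (SE). ACTG1 (ENSG00000184009, chr17:81509971-81523847, minus strand) stood at 2960.0, 3002 and 2987 CPM with DMSO and at 2915, 2931 and 2835 CPM with GSK-A1. Its groups did not overlap either, yet the means of 2983 ± 21.1 and 2894 ± 51.4 CPM lay close, a log2 fold change of -0.04 ± 0.03. With the trend of each library on GC content removed, an alternative chosen once results were known, the log2 fold change was -0.08 for ACTB and 0.04 for ACTG1, so the sign for ACTG1 turned. Under upper-quartile library factors the values were -0.18 and -0.08. Without GSK-A1 replicate 3 the value for ACTG1 was -0.03. Both transcripts are rich in G and C, at 56.0% for ACTB and 55.5% for ACTG1. In bulk libraries a change in cell makeup and a change of mRNA per cell cannot be told apart.

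The balance between both cytoplasmic isoforms does not depend on library scaling. The ratio of ACTG1 to ACTB counts was 1.375, 1.383 and 1.395 with DMSO and 1.487, 1.494 and 1.469 with GSK-A1. Every GSK-A1 library was above every DMSO library, and the mean went from 1.384 ± 0.010 to 1.484 ± 0.013 (SD, n = 3), a gap of 0.0992. Without GSK-A1 replicate 2 the gap was 0.0941. ACTB took 41.8% ± 0.19 of the counts of the 7 genes with DMSO and 40.2% ± 0.21 with GSK-A1, and ACTG1 took 57.8% ± 0.17 and 59.6% ± 0.20. Per kilobase of transcript the shares were 42.8% and 41.2% for ACTB, and 56.6% and 58.4% for ACTG1. The 7 genes together summed to 5157 ± 33.7 CPM with DMSO and 4856 ± 70.3 CPM with GSK-A1, and ACTB held -204 CPM of the -301 CPM between them, ACTG1 -89.1 CPM and ACTA2 -9.37 CPM.

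**Figure D1:**
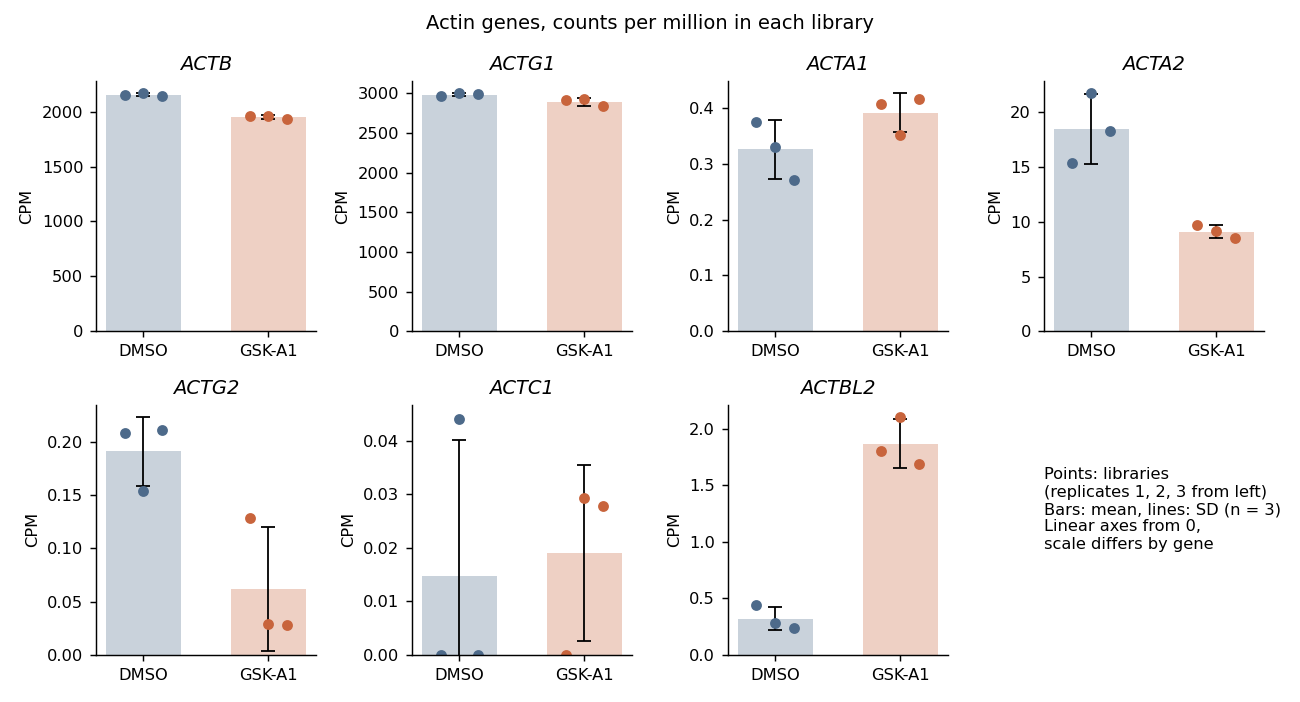
Level of each actin gene in CPM on linear axes from 0, with 1 point per library, bars at the group mean and lines for the SD over 3 libraries. ACTBL2 is higher and ACTA2, ACTB, ACTG1 and ACTG2 are lower in all GSK-A1 libraries, while ACTA1 and ACTC1 overlap between the groups.

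ACTBL2 (ENSG00000169067, chr5:57480016-57482809, minus strand, 1 exon) was rare without the inhibitor. It had 21, 13 and 8 counts with DMSO, or 0.438, 0.286 and 0.241 CPM. With GSK-A1 it had 84, 72 and 61 counts, or 1.80, 2.11 and 1.69 CPM. The lowest GSK-A1 library was well above the highest DMSO library. Means of 0.322 ± 0.103 and 1.87 ± 0.22 CPM (SD, n = 3) gave a fitted fold change of 5.56, or 2.48 ± 0.22 on the log2 scale (SE). Summed over libraries there were 42 counts with DMSO (exact 95% Poisson interval 30.3 to 56.8, counting error only) and 217 with GSK-A1 (189 to 248). The spread between GSK-A1 replicates, a coefficient of variation of 11.6%, was about the 11.8% that counting alone gives at this depth. ACTBL2 entered the fit through the GSK-A1 libraries, in which it is high, so its passing the count filter is no separate evidence. Its log2 value ranged from 2.34 without DMSO replicate 3 to 2.78 without DMSO replicate 1.

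ACTA2 (ENSG00000107796, chr10:88935074-88991339, minus strand) was the third most abundant actin per kilobase of transcript in both groups. It stood at 15.4, 21.8 and 18.3 CPM with DMSO, from 737, 991 and 606 counts. With GSK-A1 it stood at 9.68, 9.14 and 8.52 CPM, from 451, 312 and 307 counts. All GSK-A1 libraries were below the lowest DMSO library, with means of 18.5 ± 3.2 and 9.11 ± 0.58 CPM (SD, n = 3). The fitted fold change was 0.495, or -1.01 ± 0.12 on the log2 scale (SE). The value was -1.14 without DMSO replicate 1 and -0.87 without DMSO replicate 2. Exons of FAS and ACTA2-AS1 on the opposite strand cover 12.8% and 17.3% of the exonic length of ACTA2. FAS, a death receptor, stood at 25.2 ± 1.16 CPM with DMSO and 23.9 ± 1.45 CPM with GSK-A1, with overlapping groups, and ACTA2-AS1 had 9 counts in all DMSO libraries and 10 in all GSK-A1 libraries. The libraries came from a stranded kit, but whether counting used strand is not given in the sources used here. The smooth muscle and fibroblast markers summed to 11.9 to 12.9 CPM with DMSO and 9.11 to 12.3 CPM with GSK-A1. Of the 8, only COL1A1 and LMOD1 had a mean above 1 CPM, MYH11 and COL1A2 averaged below 0.0905 CPM, and LMOD1 stood at 4.50 CPM with DMSO and 3.65 CPM with GSK-A1. Their part in the ACTA2 difference was not tested.

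The spread of ACTA2 between DMSO libraries was large for its level. The members were chosen on a contrast that uses the same DMSO values, so this spread is not independent of the choice. The SD of its log2 CPM over the 3 DMSO libraries was 0.251, against a median of 0.0509 over 4267 tested genes within 2-fold of its level, of which 0.0234% had a larger SD. Counting alone gives a coefficient of variation of 3.59% at this depth, and the DMSO libraries showed 17.4%. With GSK-A1 the SD was 0.0918, and 36.4% of the same genes had a larger one. ACTB and ACTG1 were at the other end, with DMSO SDs of 0.00990 and 0.0102. ACTBL2 and ACTA1, at 0.385 and 0.203, sat among genes of their level, where 28.2% and 68.8% had a larger SD. With 3 libraries an SD is itself imprecise, and no test was run on it.

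**Figure D2:**
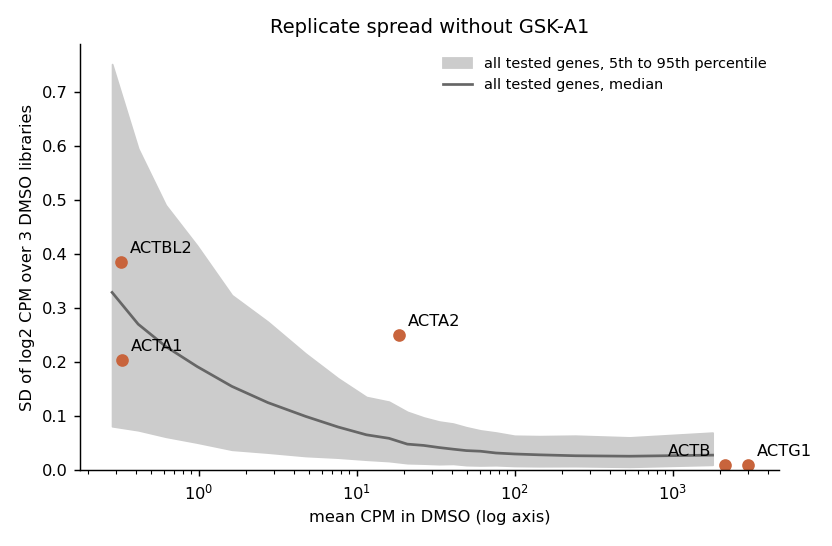
SD of log2 CPM over the 3 DMSO libraries against mean CPM in DMSO on a log axis, for the 5 tested actin genes (points) beside the median (line) and the 5th to 95th percentile (grey band) of all tested genes in bins of level. ACTA2 lies above the band at 0.251, while ACTB and ACTG1 lie near 0.01.

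The other muscle actins were near the limit of detection. ACTA1 (ENSG00000143632, chr1:229431245-229434098, minus strand) had 18, 15 and 9 counts with DMSO and 19, 12 and 15 with GSK-A1. Its levels of 0.375, 0.330 and 0.272 CPM overlapped the 0.408, 0.352 and 0.416 CPM with GSK-A1, and the log2 fold change of 0.25 ± 0.29, or 0.16 without DMSO replicate 3, was within its error. ACTG2 (ENSG00000163017, chr2:73892314-73919865, plus strand) had 10, 7 and 7 counts with DMSO and 6, 1 and 1 with GSK-A1, too few to pass the count filter. Its sums of 24 (15.4 to 35.7) and 8 (3.45 to 15.8) counts have exact 95% Poisson intervals that overlap slightly. ACTC1 (ENSG00000159251, chr15:34788095-34795726, minus strand) had 2 counts in each group, in 1 DMSO library and 2 GSK-A1 libraries. A library with 0 counts allows up to 0.0905 CPM, so no difference was detectable for ACTC1 at this depth.

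Of the 7 members, 5 passed the count filter, and edgeR's quasi-likelihood fit over all genes called ACTBL2 higher and ACTA2 and ACTB lower at an adjusted p under 0.05. In that fit 22.9% of the 16754 tested genes were called, 2007 genes (12.0%) higher and 1828 genes (10.9%) lower. The split was 1339 higher and 2688 lower under upper-quartile factors and 2804 higher and 1531 lower with the GC trend removed. The same 3 members were called without GSK-A1 replicate 2. The groups did not overlap for 4 of the 5, higher for ACTBL2 and lower for ACTA2, ACTB and ACTG1, against 40.5% of the tested genes (20.2% higher and 20.4% lower), and since the members were chosen on this contrast nothing is read from these counts. The ACTB call was lost with the GC trend removed. DESeq2 gave ACTBL2 a log2 fold change of 2.51 but no adjusted p, and called ACTA2 and ACTB.

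Levels between genes were compared per kilobase of the principal transcript. With DMSO the order was ACTG1 at 1483 ± 10.5, ACTB at 1122 ± 7.70, ACTA2 at 13.7 ± 2.4, ACTA1 at 0.218 ± 0.035, ACTG2 at 0.125 ± 0.021, ACTBL2 at 0.115 ± 0.037 and ACTC1 at 0.00397 ± 0.00687 CPM per kilobase (SD, n = 3). ACTG2 and ACTBL2 overlapped in that order and did not differ beyond their spread. With GSK-A1 ACTBL2 came next after ACTA2 at 0.669 ± 0.077, above ACTA1 at 0.263 ± 0.024 CPM per kilobase, with no overlap between the libraries of both genes. ACTA2 was then at 6.75 ± 0.43 and ACTG2 at 0.0405 ± 0.0378 CPM per kilobase. The 5 low genes together held 0.375% ± 0.058 of the counts of the 7 with DMSO and 0.236% ± 0.011 with GSK-A1. Within these 5, ACTA2 went from 95.5% ± 1.5 to 79.6% ± 1.1 of the counts and ACTBL2 from 1.74% ± 0.81 to 16.3% ± 1.6. The ratio of ACTA2 to ACTBL2 counts was 35.1, 76.2 and 75.8 with DMSO and 5.37, 4.33 and 5.03 with GSK-A1, and it did not overlap between the groups.

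**Figure D3:**
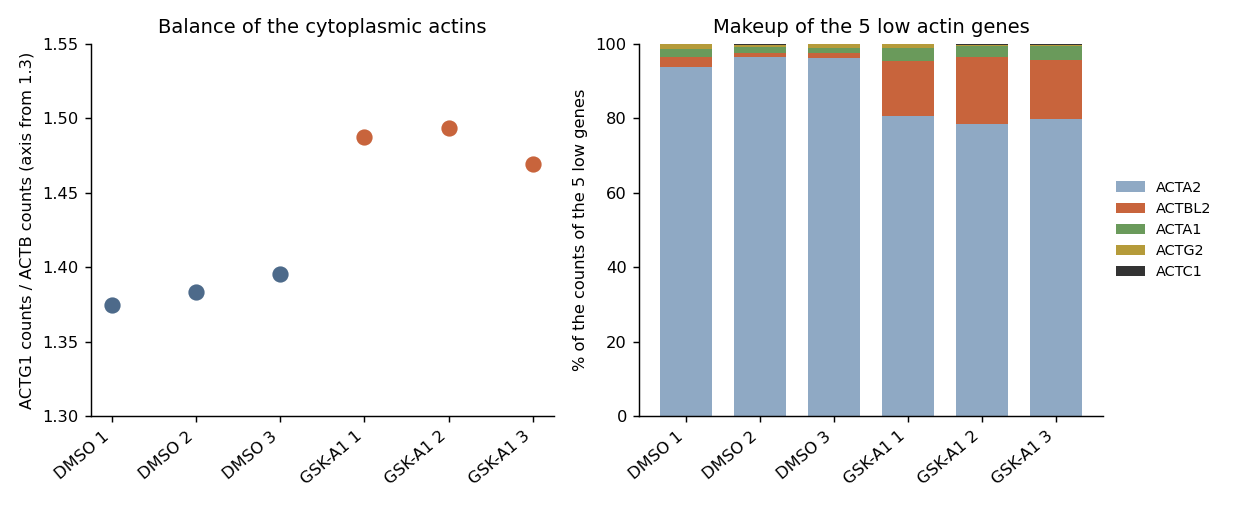
Left, ratio of ACTG1 to ACTB counts in each library, on an axis that starts at 1.3. Right, makeup of the 5 low actin genes as stacked percentages of their summed counts, where ACTBL2 averages 16.3% in the GSK-A1 libraries and 1.74% in the DMSO libraries.

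The promoters of the members were compared because ACTBL2 and ACTA2 lay on opposite sides of DMSO while both belong to a family known for SRF sites. RefSeq windows on GRCh38.p14, from 250 bases before a gene's start to 50 after it, were found for 6 of the 7 members, all but ACTB. The CArG box was searched as CC, then 6 bases each A or T, then GG, which reads the same on both strands. Among 35116 windows, 1.29% held it, and 18.9% held it when 1 letter could differ. A full match was found in ACTG1, ACTA1 and ACTC1 with 1 each (in ACTC1 at the first of its starts) and in ACTG2 with 2. Neither of the ACTA2 starts had a full match, but the start nearer the coding exons had 2 matches with 1 letter off, at -121 and -71. ACTBL2 had no match, not even with 1 letter off. The 250 bases before the start are printed for ACTBL2, both ACTA2 starts and ACTG1, with capitals for matches of the CArG box with at most 1 letter off.
ACTBL2, chr5:57482812-57483061, minus strand: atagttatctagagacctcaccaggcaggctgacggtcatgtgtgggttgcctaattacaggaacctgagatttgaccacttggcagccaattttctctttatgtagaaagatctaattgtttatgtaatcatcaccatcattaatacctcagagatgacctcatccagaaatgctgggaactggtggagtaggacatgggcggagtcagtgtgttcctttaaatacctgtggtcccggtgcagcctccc
ACTA2, nearer start, chr10:88952774-88953023, minus strand: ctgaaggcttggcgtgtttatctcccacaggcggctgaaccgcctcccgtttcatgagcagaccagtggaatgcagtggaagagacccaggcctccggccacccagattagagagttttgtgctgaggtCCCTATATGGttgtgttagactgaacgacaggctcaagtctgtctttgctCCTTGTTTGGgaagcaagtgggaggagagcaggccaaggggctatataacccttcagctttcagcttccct
ACTA2, farther start, chr10:88991338-88991587, minus strand: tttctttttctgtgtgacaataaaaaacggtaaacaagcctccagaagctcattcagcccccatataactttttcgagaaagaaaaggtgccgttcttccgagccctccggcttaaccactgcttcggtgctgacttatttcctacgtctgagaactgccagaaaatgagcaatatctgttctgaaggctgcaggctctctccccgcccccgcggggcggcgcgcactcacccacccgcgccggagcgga
ACTG1, chr17:81512800-81513049, minus strand: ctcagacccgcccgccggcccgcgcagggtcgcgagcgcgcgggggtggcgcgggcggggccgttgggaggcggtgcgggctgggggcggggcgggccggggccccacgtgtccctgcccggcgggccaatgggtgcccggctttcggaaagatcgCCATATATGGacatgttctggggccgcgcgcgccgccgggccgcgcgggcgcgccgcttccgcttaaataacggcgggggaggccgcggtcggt
A match is a description of these letters, and its absence says only that the letters are not in this window. Gene counts do not show which ACTA2 start was used.

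The genes whose pattern lay nearest to a member were found by the root mean square difference of log2 CPM, centred on the DMSO mean, over the 6 libraries and 12815 candidate genes. Nearest to ACTBL2 were C11orf96 at 0.243, EGR1 (a zinc finger transcription factor) at 0.277, MAFF (a small MAF transcription factor) at 0.289, TNFRSF12A (the receptor of TWEAK) at 0.361 and RHOB (a small GTPase) at 0.388. The same 5 came out without GSK-A1 replicate 2 and with a prior count of 0.5. C11orf96 shares 41.9% of its exonic length with an overlapping gene on its own strand, so its reads could be split. Nearest to ACTA2 was MAP2K6, a kinase upstream of p38, at 0.0930, followed by USH1G at 0.166, PTCHD4 at 0.168, FREM1 (a basement membrane protein) at 0.195 and COL3A1 (the chain of type III collagen) at 0.196. Of these 5, 2 were kept without GSK-A1 replicate 2 and 3 with a prior count of 0.5. In DMSO replicates 1, 2 and 3 ACTA2 lay at -0.25, 0.25 and 0.00 from its DMSO mean on the log2 scale, and MAP2K6 at -0.13, 0.11 and 0.01. USH1G, the next nearest, lay at -0.23, -0.003 and 0.24. The measure takes in these DMSO values as well as the difference between the groups. A likeness in DMSO is therefore part of how the genes were picked. The measure is a description and carries no test.

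**Figure D4:**
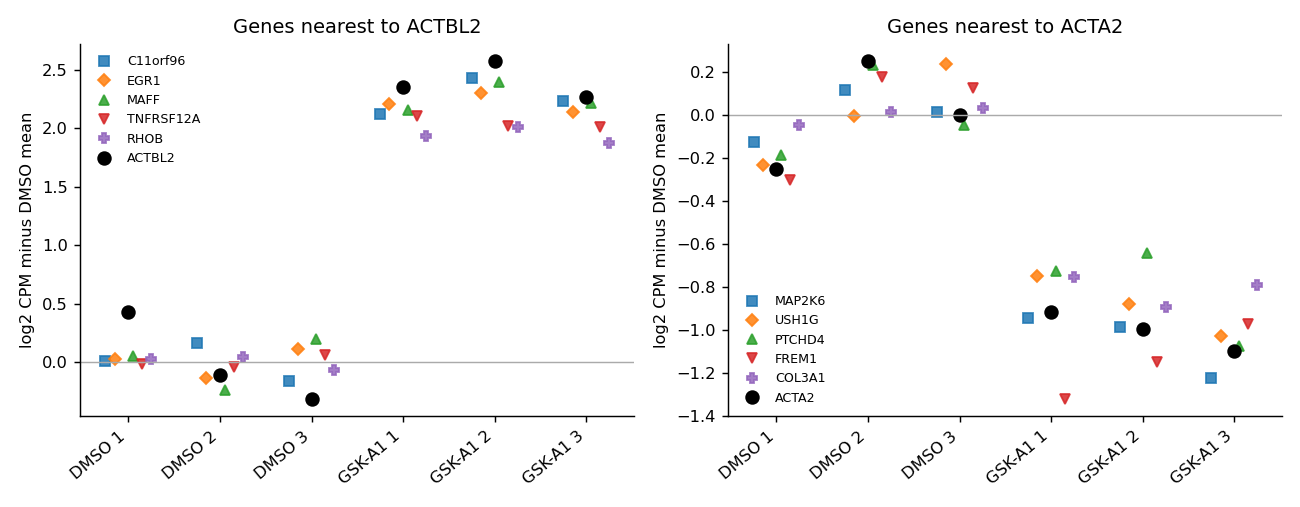
log2 CPM minus the DMSO mean in each library for ACTBL2 (left, black) and ACTA2 (right, black) and the 5 genes nearest to each. The genes near ACTBL2 lie between 1.87 and 2.43 in the GSK-A1 libraries, and those near ACTA2 lie between -0.64 and -1.32.

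Beyond the isoforms, 4 lists of genes of the actin system were read from the same fit. Of 30 SRF and MRTF regulators and smooth muscle or stress fibre partners, 25 were tested, of which 9 rose and 2 fell with a median log2 fold change of 0.06, against 12.0% higher, 10.9% lower and a median of -0.01 over all tested genes. CCN1, a secreted matrix-associated protein, rose by 0.64 ± 0.06 (SE) on the log2 scale from 18.6 ± 0.40 to 29.1 ± 2.54 CPM (edgeR adjusted p = 3.72e-06). TAGLN2, transgelin-2, rose from 577 ± 10.3 to 726 ± 17.5 CPM, or by 0.33 ± 0.03 on the log2 scale (edgeR adjusted p = 3.72e-06), with 9.32% of its 50-base stretches found in other genes. ZYX, the focal adhesion protein zyxin, rose by 0.28 ± 0.04 (edgeR adjusted p = 6.91e-05). The falls were TPM1, a tropomyosin, at -0.20 ± 0.05 (edgeR adjusted p = 0.00678), and MYH10, a nonmuscle myosin heavy chain, at -0.10 ± 0.03 (edgeR adjusted p = 0.0358). TPM1-AS on the opposite strand covers 16.1% of the exonic length of TPM1. The TPM1 call was lost without DMSO replicate 3 (edgeR adjusted p = 0.0623). The MYH10 call was lost by DESeq2, with the GC trend removed, with no count filter, under relative-log-expression (RLE) factors and when any 1 library other than GSK-A1 replicate 2 was left out, with an adjusted p of up to 0.169. The next genes were picked for their role after their values were seen. MRTFA rose by 0.14 ± 0.04 (edgeR adjusted p = 0.0263), while SRF stood at 106 ± 2.62 CPM with DMSO and 104 ± 5.85 CPM with GSK-A1, and MRTFB at 28.5 ± 0.49 and 28.3 ± 0.25 CPM, with overlapping groups for both. The smooth muscle genes MYOCD, CNN1, MYL9 and MYH11 were too low to test. TAGLN, a smooth muscle marker often read beside ACTA2, stood at 3.73 ± 0.26 with DMSO and 3.88 ± 0.61 CPM with GSK-A1. Without DMSO replicate 3 the list had 7 calls, all higher, and under upper-quartile factors 7 rose and 4 fell, with a median of 0.02. With the GC trend removed 13 rose and 1 fell, with a median of 0.11.

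Genes that fold, charge and recycle actin monomers had 9 members higher and 3 lower of 34 tested, which is 35.3% called against 22.9% of all tested genes (12.0% higher and 10.9% lower). Among genes with at least 1 CPM in 3 libraries, 12 of 34 were called in this list and 3818 of 13791 over all genes. The median log2 fold change of the list was 0.05, against -0.01 over all tested genes. Leaving out GSK-A1 replicate 2 gave 0.03 and leaving out GSK-A1 replicate 3 gave 0.08. The median was 0.0043 under upper-quartile factors, where the median over all tested genes was -0.05. CFL2, a cofilin that severs filaments, rose from 77.6 ± 1.64 to 100.4 ± 8.06 CPM, or by 0.37 ± 0.05 on the log2 scale (edgeR adjusted p = 1.10e-04). CCT4, a subunit of the chaperonin that folds actin, rose by 0.19 ± 0.04 (edgeR adjusted p = 0.00149), and TWF1, the monomer-binding twinfilin, by 0.25 ± 0.06 (edgeR adjusted p = 0.0115). Of the 50-base stretches of TWF1, 21.3% occurred in other genes, and its call was lost without DMSO replicate 2 or 3 (edgeR adjusted p = 0.0578 and 0.0505), while without GSK-A1 replicate 2 its log2 fold change was 0.16. LIMK2, a kinase that inactivates cofilin, fell, its log2 value being -0.27 ± 0.06 (edgeR adjusted p = 0.00313). The profilins PFN2 and PFN1, which carry monomers to filament ends, changed by -0.14 ± 0.04 and -0.11 ± 0.04 (edgeR adjusted p = 0.0286 and 0.0359). The PFN1 and PFN2 calls were each lost when any 1 DMSO library or GSK-A1 replicate 1 was left out, and that of PFN2 also without GSK-A1 replicate 3, with an edgeR adjusted p of up to 0.187 for PFN1 and 0.135 for PFN2. The PFN1 call was also lost by DESeq2 and with no count filter, and PFN1 stood at -0.02 with the GC trend removed. The 12 calls of this list became 6, 3 and 4 without DMSO replicates 1, 2 and 3, and 7 without GSK-A1 replicate 1. Under upper-quartile factors 3 rose and 4 fell, and with the GC trend removed 13 rose and 2 fell.

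Filament nucleators had 6 members higher and 4 lower of 31 tested, which is 32.3% called against 22.9% of all tested genes (12.0% higher and 10.9% lower). Among genes with at least 1 CPM in 3 libraries, 10 of 31 nucleators and 3818 of 13791 genes were called. The median log2 fold change of the nucleators was 0.05, and it was 0.03 without GSK-A1 replicate 2 and 0.0045 under upper-quartile factors. SPIRE1, a nucleator with WH2 repeats, rose by 0.26 ± 0.04 (edgeR adjusted p = 6.89e-04), JMY by 0.20 ± 0.04 (edgeR adjusted p = 0.00417) and the formin DIAPH3 by 0.29 ± 0.06 (edgeR adjusted p = 0.00443). ARPC4, a subunit of the Arp2/3 complex, fell from 13.5 ± 0.68 to 10.3 ± 0.37 CPM, its log2 value being -0.40 ± 0.07 (edgeR adjusted p = 6.37e-04), though 14.99% of its exonic length also belongs to the readthrough gene ARPC4-TTLL3 and 13.3% lies opposite TADA3. The formins DAAM2 and FMN2 changed by -0.33 ± 0.08 and -0.17 ± 0.05 (edgeR adjusted p = 0.00744 and 0.0262). The DAAM2 call was lost without DMSO replicate 2 (edgeR adjusted p = 0.0521), and that of FMN2 by DESeq2, with the GC trend removed and when any 1 library other than GSK-A1 replicate 2 was left out, with an adjusted p of up to 0.126. Genes on the opposite strand cover 25.9% of the exonic length of SPIRE1 and 24.4% of that of DAAM2. With the GC trend removed 8 nucleators rose and 2 fell, and with 1 library left out the falls numbered 1 to 3. Among the actin-related proteins, more distant relatives that serve in chromatin and motor complexes, 1 of 12 rose and 1 fell, which is 16.7% called against 22.9% of all tested genes. ACTR6, of a chromatin remodelling complex, rose by 0.19 ± 0.05 (edgeR adjusted p = 0.0185), and ACTR10, of dynactin, changed by -0.17 ± 0.06 (edgeR adjusted p = 0.0337). The ACTR10 call was lost by DESeq2 (adjusted p = 0.0559) and when any 1 library other than GSK-A1 replicate 2 was left out, and that of ACTR6 without DMSO replicate 2 or 3. The Arp2/3 subunits ACTR2 and ACTR3, picked after their values were seen, stood at 363 ± 0.81 and 142 ± 5.23 CPM with DMSO and at 380.3 ± 32.7 and 149 ± 10.9 CPM with GSK-A1.

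**Figure D5:**
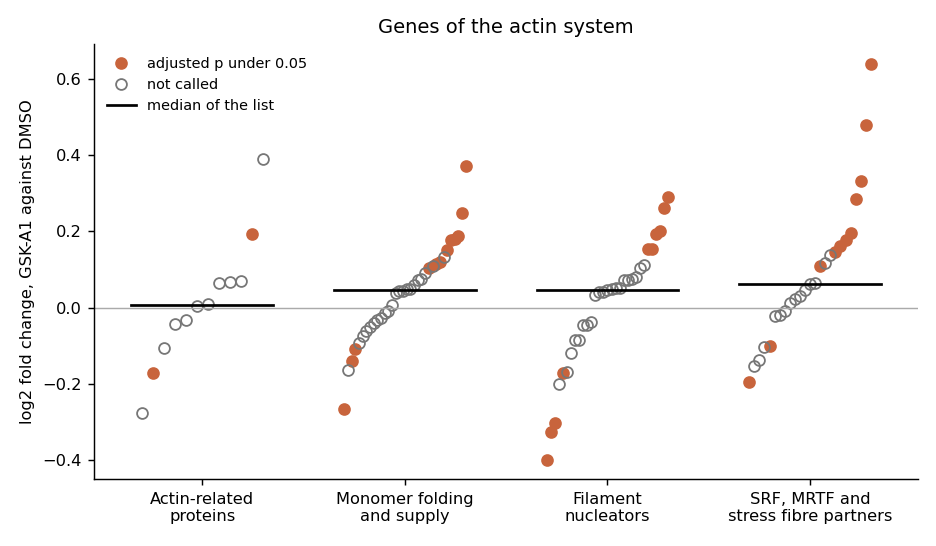
log2 fold change of every tested gene in 4 lists of the actin system, filled where the edgeR adjusted p was under 0.05, with a bar at each list's median. The medians lie between 0.01 and 0.06, and CCN1, at 0.64, is the highest point.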

How the data were processed

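Total RNA of HEK293 cells was made into 6 libraries with a stranded TruSeq kit, per the labels' protocols. The authors deposited raw read counts per gene for the 6 libraries. The submitters' processing notes name cutadapt 5.1, STAR 2.7.11b, featureCounts of Subread 2.1.1, DESeq2 1.38.0 and build GRCh38.p13. The annotation release and the strand setting are not given in the sources used here.

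The counts were tested with edgeR 4.0.16 in R 4.3.3: TMM factors, filterByExpr (minimum count 10, total 15), a robust quasi-likelihood fit of GSK-A1 against DMSO, and Benjamini-Hochberg adjustment over 16754 genes, called under 0.05. CPM values use TMM-scaled library sizes. A step on simulated counts for this comparison and these 16754 genes recovered 92% of genes changed by 1 and 78% of those changed by 0.5 on the log2 scale. Of its calls, 5.03% were unchanged genes. Every simulated gene had the same coefficient of variation beyond counting, 4.06%, against 9.14% fitted for ACTA2, and no library stood apart. The recovery therefore holds for that setting only. The actin genes and the 4 lists were chosen with earlier results of these data known. Named were all members, up to 3 called genes in each direction with the smallest p-values per list, every called actin-related protein, and the 5 genes nearest to ACTBL2 and ACTA2 in log2 CPM (prior count 2) among those with a mean of at least 1 CPM. Genes outside this rule are said to be so or serve as markers or background. Lengths, coordinates and overlaps came from GENCODE release 29 (GRCh38), in which 58072 of the table's identifiers were found, and promoters from RefSeq. Alternatives were DESeq2 1.42.0, limma-voom (limma 3.58.1), other library factors and filters, a threshold of 0.01, each library left out, a replicate block and, added after the data were seen, removal of each library's trend on GC content. A cell type marker is not reported here.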

Additional observations from a re-analysis of the deposited data

How the results depend on the processing

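Under every alternative run, ACTBL2 stayed higher and ACTA2 and ACTB lower, and the ACTG1 to ACTB gap lay between 0.0941 and 0.106 with 1 library left out. Members called numbered 2 by DESeq2 and with the GC trend removed, 4 under upper-quartile factors and 3 elsewhere. The log2 fold change of ACTG1 was 0.04 with the GC trend removed. The cause was not tested for any of these. Genes called fell from 3835 to 1871 at an adjusted p under 0.01, and ranged from 2163 to 4890 with 1 library left out: 2163, 2213 and 2206 without DMSO replicates 1, 2 and 3. Folding and supply genes called numbered 3 at 0.01, 7 under upper-quartile factors and 3 to 15 with 1 library left out, against 12. Actin-related proteins called numbered 0 at 0.01 by edgeR (2 at an unadjusted p under 0.05), 1 by DESeq2, and 0 to 2 with 1 library left out: 0 without DMSO replicate 2 or 3, with 2 at an unadjusted p under 0.05 in each. The median log2 fold change of that list, 0.01, was -0.03 with upper-quartile scaling. SRF and partner genes called ranged from 7 to 12, and nucleators from 7 to 9, with 1 library left out. Of the 5 genes nearest to ACTA2, 3 were shared with a prior count of 0.5 and 2 without GSK-A1 replicate 2. ACTA2's share of the 7 genes differed by -0.248 percentage points per kilobase against -0.171 in counts, and ACTBL2's by 0.0227 against 0.0322.

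Whether equal replicate numbers pair the libraries is not settled by these data. Deviations of same-numbered libraries correlated at 0.011, 0.019 and 0.032 over genes, and those of other pairs at -0.033 to 0.012. Of 6 libraries, 5 correlated best with their own number. The deviations cancel out within a group, so these matches depend on each other and nothing is read from their count. With a replicate block 4127 genes and 3 members were called. Depth limits ACTA1, ACTG2, ACTC1 and ACTBL2 in DMSO.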

Other observations

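Of 30 actin pseudogenes, 2 had CPM values that did not overlap between the groups, and both lay below the count filter. The share over tested genes, 40.5%, is no like measure. Only 1 pseudogene was tested, and several had no counts in any library. ACTBP7 had 3, 5 and 2 counts with DMSO and 6, 6 and 7 with GSK-A1. ACTG1P1 had 13, 15 and 8 counts with DMSO and 10, 4 and 7 with GSK-A1, which overlap as counts, or 0.281 ± 0.045 and 0.175 ± 0.051 CPM (SD, n = 3 libraries). Both are named because of these values. ACTG1P20, the only tested pseudogene, stood at 0.630 and 0.498 CPM. Reads of such copies can be shared with ACTB and ACTG1.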
